A study of Caenorhabditis elegans with 2 samples.

Results

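The genes described here encode the factors that run translation in Caenorhabditis elegans: 42 genes whose symbols begin with eif, eef, erfa, ife, ifg, iff, inf or iftb followed by a number, out of 19985 protein-coding genes in the Ensembl models of assembly WBcel235. The data are chromatin immunoprecipitation followed by sequencing (ChIP-seq) of CEH-91, a homeobox protein, carrying a fluorescent tag. Both samples were whole young adult worms of strain RW12305, genotype st12305[ceh-91::TY1::EGFP::3xFLAG] III, in which CRISPR placed a TY1, EGFP and 3xFLAG tag in the endogenous ceh-91 gene. The worms were 62.5 hours old after synchronisation by bleaching and L1 starvation, their chromatin was sonicated, and it was precipitated with an antibody against GFP. The 2 samples are biological replicates 1 and 2 of 1 group, and no other genotype, treatment or time is compared. Nothing in the labels says that the replicates were separate cultures, so their spread may be technical, and the deposited notes name the same control alignment for both. The tissue in which a site was occupied cannot be read from whole worms.

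Translation of an mRNA begins when initiation factors deliver the initiator tRNA to the small ribosomal subunit and load that subunit onto the capped mRNA. Elongation factors then bring aminoacyl-tRNAs to the ribosome and move it along the message, and release factors free the finished protein at a stop codon. All growing cells need translation factors. In the worm several of these genes, among them those for the cap-binding eIF4E proteins, have been studied for their part in germ cell development.

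The peaks, in coordinates of assembly ce11 (WBcel235), are described from 4 pairs of deposited lists: a comparison between the replicates called conservative, a comparison on pooled data, and 1 comparison within each replicate. A listed peak is one in a thresholded list, where the global irreproducible discovery rate is at most 0.01, a low rate meaning that the peak ranked alike in both inputs of its comparison. A ranked peak is any peak in the matching ranked list, whatever its rate. In the conservative comparison 1700 ranked peaks had a rate of at most 0.01 and 1612 peaks were listed. A rate under the threshold thus did not by itself make a peak listed. A gene was counted as listed when the summit of a listed peak lay between 1000 bp upstream and 200 bp downstream of one of its transcript starts. Under that rule 13 of the 42 translation factor genes were listed in the conservative list, beside 7.37% of all protein-coding genes.

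The DNA under 8 of those 13 summits is shown first, as the summit of the conservative list with 50 bases on either side, read 5′ to 3′ on the strand of the translation factor gene from the RefSeq genome of WBcel235. The first 6 hold at least 1 of the 3 words that capitals mark, and the last 2 hold none of those 3 but have RNA genes near the summit. Capitals mark the word TTCGCGC, the word GCGCCA and the word CTGCGTAG on either strand in every sequence except that of eif-2Bgamma, where they mark bases of the annotated RNA gene sup-39. GCGCCA and CTGCGTAG were noted only after the 13 windows had been read, so their marks reflect that choice and support nothing. The shares of these words under other peaks are given further below. The windows are eef-1G at V:10965645-10965745 (plus strand), iff-1 at III:9746845-9746945 (minus strand), iff-2 at II:8561400-8561500 (minus strand), eif-2A at II:10416612-10416712 (plus strand), ife-3 at V:8194-8294 (minus strand), erfa-1 at V:6433735-6433835 (plus strand), eef-1A.1 at III:6972076-6972176 (minus strand) and eif-2Bgamma at II:6968494-6968594 (minus strand).
eef-1G: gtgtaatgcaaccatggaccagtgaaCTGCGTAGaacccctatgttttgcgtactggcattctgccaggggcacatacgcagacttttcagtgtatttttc
iff-1: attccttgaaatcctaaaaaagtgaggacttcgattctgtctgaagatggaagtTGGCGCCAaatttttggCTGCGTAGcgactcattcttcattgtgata
iff-2: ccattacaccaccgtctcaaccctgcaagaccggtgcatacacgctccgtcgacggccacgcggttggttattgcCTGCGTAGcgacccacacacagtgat
eif-2A: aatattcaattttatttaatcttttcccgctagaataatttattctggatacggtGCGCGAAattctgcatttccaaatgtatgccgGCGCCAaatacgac
ife-3: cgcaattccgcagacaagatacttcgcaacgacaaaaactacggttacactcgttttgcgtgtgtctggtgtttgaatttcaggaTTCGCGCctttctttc
erfa-1: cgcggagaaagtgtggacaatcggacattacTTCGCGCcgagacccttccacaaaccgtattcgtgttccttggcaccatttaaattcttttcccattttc
eef-1A.1: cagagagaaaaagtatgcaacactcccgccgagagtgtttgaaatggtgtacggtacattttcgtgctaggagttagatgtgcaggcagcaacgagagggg
eif-2Bgamma: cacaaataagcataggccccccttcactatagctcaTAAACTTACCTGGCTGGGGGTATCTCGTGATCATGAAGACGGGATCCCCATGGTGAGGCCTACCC

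In all 4 thresholded lists, a larger share of the translation factor genes than of all protein-coding genes had a listed summit. In the conservative list the share was 13 of 42, or 31% (exact Clopper-Pearson 95% interval 17.6 to 47.1%), beside 7.37% of all protein-coding genes. In the pooled list it was 12 of 42, or 28.6% (15.7 to 44.6%), beside 7.65%. In replicate 1 it was 10 of 42, or 23.8% (12.1 to 39.5%), beside 6.06%, and in replicate 2 it was 13 of 42, or 31% (17.6 to 47.1%), beside 5.32%. The lower end of each interval lay above the share of all protein-coding genes. No test was made, since the genes were chosen with results of these lists known, and the intervals treat genes as independent and cover counting error only. Of the 42 genes, 10 were listed in all 4 lists, beside 911 of the 19985 protein-coding genes. At least 1 list held 15 of the 42, and 27 were in none.

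**Figure D1:**
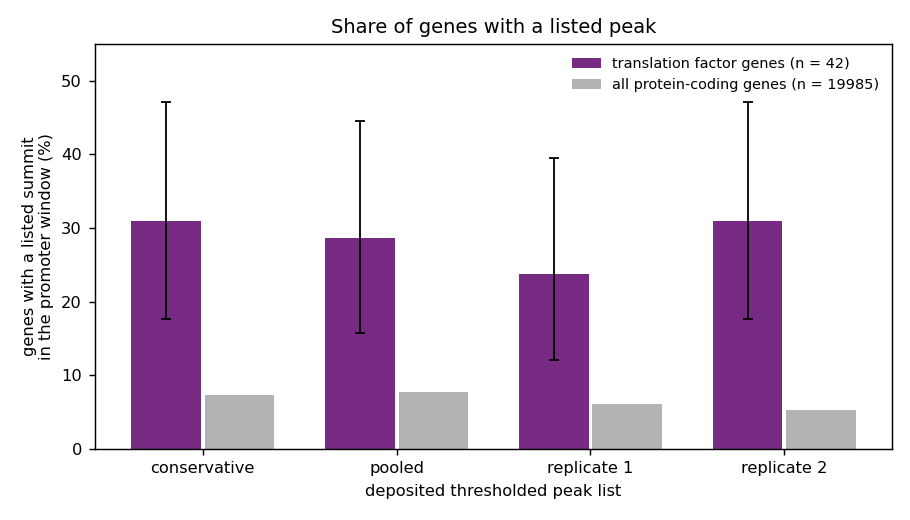
Share of genes, in percent, with a listed summit between 1000 bp upstream and 200 bp downstream of a transcript start, in each of the 4 thresholded lists. Purple bars are the 42 translation factor genes with exact 95% intervals, grey bars are all 19985 protein-coding genes; the purple bars stand between 23.8% and 31% and the grey bars between 5.32% and 7.65%.

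The genes also stood high in the ranked lists. In the conservative comparison 37 of 42, or 88.1%, had a ranked summit in the window, beside 52% of protein-coding genes. Among genes with a ranked summit, the strongest had a median signal of 64.4 at translation factor genes and 38.4 at protein-coding genes, in the authors' signal units, whose scale is set by each list. The same medians were 42 and 28.5 in replicate 1 and 34 and 17.7 in replicate 2. Of the 37 genes with a ranked summit, 13 were listed, beside 14.2% of protein-coding genes with a ranked summit. When only genes whose strongest summit stood at or above the 90th percentile of ranked signal were counted, 13 of 26 translation factor genes were listed, beside 50.3% of protein-coding genes. Above that signal the share listed was thus near that of other genes, while 26 of 42 translation factor genes and 2930 of 19985 protein-coding genes reached it.

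By role, listed peaks of the conservative list stood at most of the elongation factor genes and at both eIF5A genes. The share was lower in the eIF4 cap-binding group (12.5%) and the eIF2 and eIF2B group (20%), beside 7.37% of all protein-coding genes. In the conservative list 4 of 6 elongation factor genes, 1 of 2 release factor genes, 2 of 2 eIF5A genes, 3 of 11 eIF3 genes, 2 of 10 genes of the eIF2 and eIF2B symbols and 1 of 8 eIF4 cap-binding genes were listed. Neither of the 2 scanning factor genes of the eIF1 symbols nor eif-6, whose product keeps the ribosomal subunits apart, was listed in any of the 4 lists. Elongation and release factors together gave 5 of 8, or 62.5% (24.5 to 91.5%), beside 7.37% of protein-coding genes. The initiation factors with eif, ife, ifg and inf symbols gave 6 of 32, or 18.8% (7.21 to 36.4%), beside the same 7.37%. In each of the 4 lists the initiation interval included the share of protein-coding genes, and the elongation and release interval lay above that share. For initiation the margin was narrow, with lower ends of 7.21% beside 7.37% in the conservative list and 5.28% beside 5.32% in replicate 2. In the conservative list the intervals of the 2 classes overlapped, but overlap does not measure the difference between them. No test of that difference was made, since the role groups were chosen with earlier results known, so an order between the classes is not shown. In replicate 1 the counts were 4 of 8 and 4 of 32, and in replicate 2 they were 6 of 8 and 5 of 32. With each summit given only to the nearest protein-coding start, the elongation and release count was 3, without eef-1A.1 and erfa-1, whose summits lie nearer a neighbour. The initiation count stayed at 6 of 32 there, beside 5.25% of protein-coding genes, so its interval then lay above that share.

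**Figure D2:**
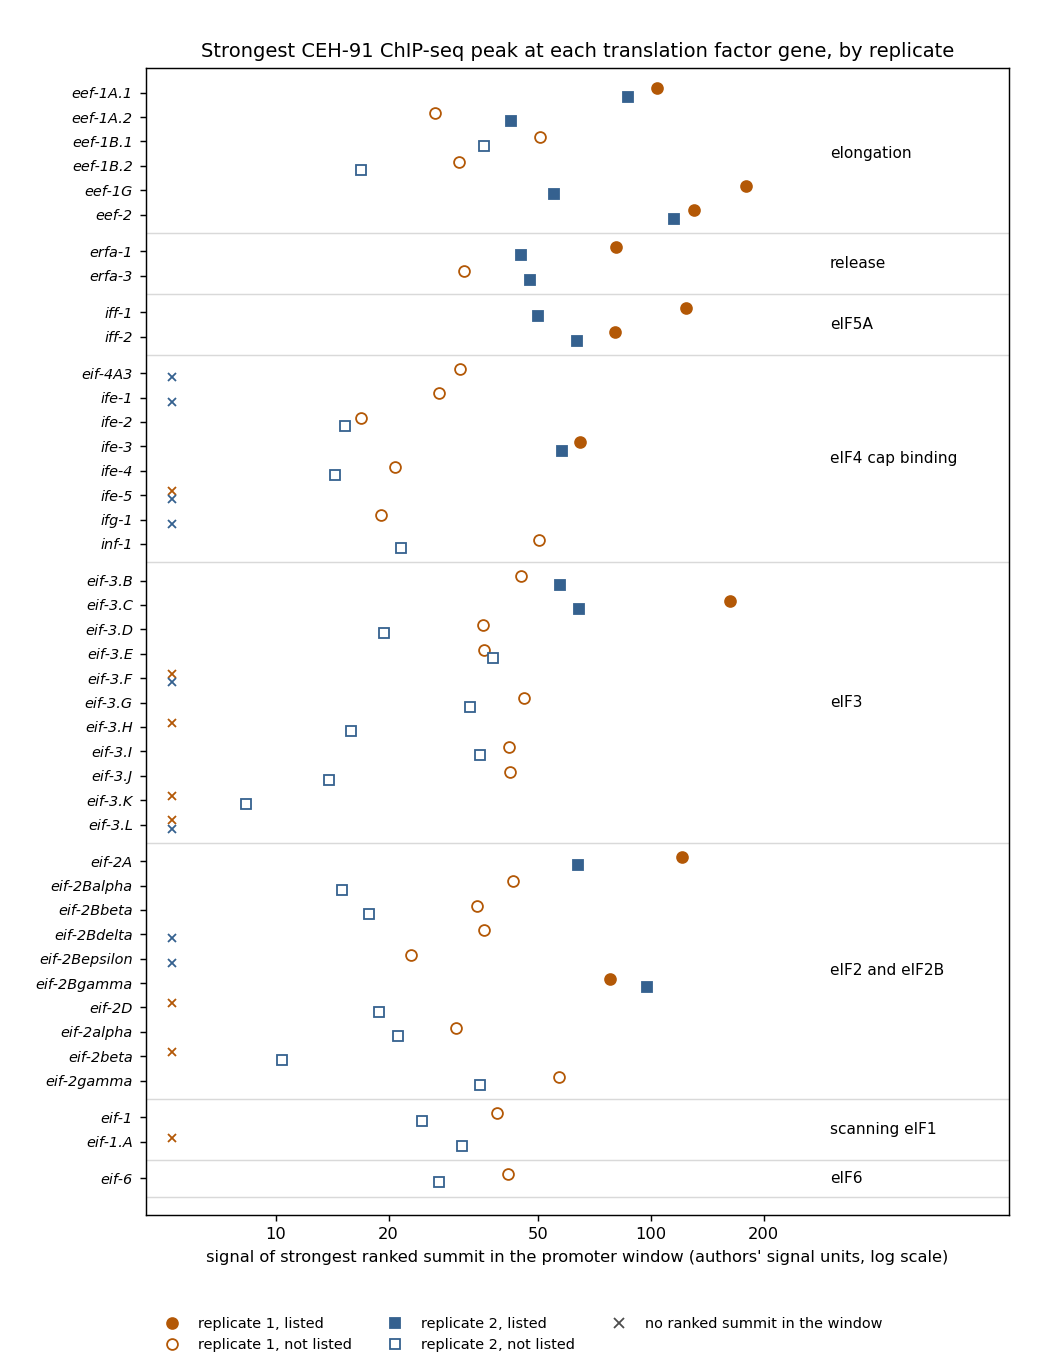
Signal of the strongest ranked summit in the promoter window of each of the 42 genes, in replicate 1 (orange circles) and replicate 2 (blue squares), on a log axis in the authors' signal units; filled symbols are listed, open symbols are ranked only, and crosses mark genes with no ranked summit. The filled symbols gather among the elongation, release and eIF5A genes, and replicate 1 lies to the right of replicate 2 at most genes.

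Elongation factor genes held the 2 strongest of the 13 peaks in the conservative list. eef-2 encodes the GTPase that moves the ribosome along the mRNA, and its peak (I:9163465-9163596) had a listed signal of 130 in replicate 1, 115 in replicate 2 and 250 in the conservative list, rank 249 of 1612. Its summit lay 5 bp upstream of the annotated start, and its global rate of 1e-05 was the lowest of the 13 peaks. eef-1G encodes the gamma subunit of the factor that recharges eEF1A with GTP. Its peak (V:10965632-10965746) had a signal of 179 in replicate 1, 55.3 in replicate 2 and 227 in the conservative list, rank 302, with the summit 24 bp upstream of a start. The 2 peaks were close in the combined signal but not in the replicates: at eef-2 both replicates were high, and at eef-1G replicate 1 carried most of it.

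eef-1A.1 encodes eEF1A, the factor that carries aminoacyl-tRNA to the ribosome. Its peak (III:6971971-6972280) had a signal of 104 in replicate 1, 87.1 in replicate 2 and 188 in the conservative list, rank 418, with the summit 414 bp upstream. eef-1A.2 encodes the same factor from a gene on chromosome X, and it was listed in replicate 2 alone, at a signal of 42.4 (X:7823174-7823443, global rate 0.00988). In replicate 1 its strongest ranked summit had a signal of 26.6 and a rate of 0.752, and in the conservative comparison a signal of 66 and a rate of 0.722. The 2 genes for eEF1A thus differed in every list but that of replicate 2. eef-1B.1, for an exchange factor subunit, was listed in the conservative list at a signal of 80.5 (III:7973236-7973545, rate 0.00292) but in no other list: its rate was 0.821 in replicate 1, 0.874 in replicate 2 and 0.793 in the pooled comparison. eef-1B.2, for another such subunit, was not listed in any of the 4 lists, with signals of 30.9 in replicate 1 and 16.9 in replicate 2.

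Release factor genes were split. erfa-1 encodes eRF1, which reads the stop codon, and its peak (V:6433630-6433939) had a signal of 80.7 in replicate 1, 45.1 in replicate 2 and 117 in the conservative list, rank 867. erfa-3 encodes eRF3, the GTPase that works with it, and was listed in replicate 2 alone at a signal of 47.7 (V:11113273-11113542, rate 0.00495), against a ranked signal of 31.8 and a rate of 0.761 in replicate 1. In the conservative comparison erfa-3 reached a signal of 71.1 with a rate of 0.738, so its signal was high and its repeat between the replicates was scored as poor.

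Both genes for eIF5A, a factor that keeps ribosomes moving through difficult peptide bonds, were listed in all 4 lists. iff-1, which is required for germ cell proliferation in the worm, had a signal of 124 in replicate 1, 50 in replicate 2 and 175 in the conservative list (III:9746740-9747049, rank 472). Its summit lay 291 bp upstream of the second of its annotated starts, in an intron of the longest transcript model. iff-2 had a signal of 80.4 in replicate 1, 63.6 in replicate 2 and 143 in the conservative list (II:8561295-8561604, rank 633), 83 bp upstream of its start. The pair kept the same order, iff-1 above iff-2, in replicate 1 and in the conservative list, and the opposite order in replicate 2.

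Among the 11 eIF3 genes, for the large complex that bridges the mRNA and the small ribosomal subunit, eif-3.C stood apart. Its peak (I:9979761-9980070) had a signal of 163 in replicate 1, 64.5 in replicate 2 and 226 in the conservative list, rank 303, with the summit 254 bp upstream. eif-3.B was listed at a signal of 100.6 in the conservative list (II:14795050-14795359) and 57.2 in replicate 2, while in replicate 1 its ranked signal was 45.1 with a rate of 0.556. eif-3.G was listed at 79.3 in the conservative list (II:8442191-8442500, rate 0.00581) and with a rate of 0.0077 in the pooled list, while its rates in replicates 1 and 2 were 0.0403 and 0.108. So 1 of the 3 eIF3 genes was listed in both replicates. At the other end, eif-3.F and eif-3.L had no ranked summit in any of the 4 ranked lists, although their products sit in the same complex.

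The eIF2 and eIF2B symbols cover the factor that carries initiator tRNA, its exchange factor, and by symbol also eif-2A and eif-2D, whose products are separate from that complex. eif-2A had a signal of 121 in replicate 1, 64 in replicate 2 and 186 in the conservative list (II:10416507-10416816, rank 426), 138 bp upstream of a start. eif-2Bgamma, for a subunit of the exchange factor, had a signal of 77.7 in replicate 1, 97.9 in replicate 2 and 169 in the conservative list (II:6968516-6968643, rank 493). Its summit lay 896 bp from its start, the farthest of the 13, and other annotated genes lay nearer, as described with the neighbours. The genes for the 3 subunits of eIF2 itself, eif-2alpha, eif-2beta and eif-2gamma, were not listed in any of the 4 lists, and eif-2gamma came nearest, at a signal of 81.7 and a rate of 0.0107.

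The worm has several eIF4E proteins, which hold the mRNA cap, and of the 5 ife genes ife-3 was the one listed. ife-3 had a signal of 64.6 in replicate 1, 58.1 in replicate 2 and 122 in the conservative list (V:8089-8398, rank 818), with the summit 416 bp upstream. ife-1, ife-2 and ife-4 had ranked summits at signals of 42.7, 37.1 and 34.8 in the conservative comparison, and ife-5 had none in any of the 4 ranked lists. ifg-1, for the scaffold eIF4G, reached 22.4, and inf-1, for the helicase eIF4A, reached 61.3 with a rate of 0.753. eif-4A3, the related helicase of the exon junction complex, reached 32.6. Thus ife-3 was the one gene of the cap-binding group above the threshold, in each of the 4 lists.

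The threshold left no clear gap in signal among these genes, although eif-2gamma alone of the unlisted genes reached the signals of the listed ones. Just inside it stood eif-3.G, at a signal of 79.3 and a rate of 0.00581, and just outside it eif-2gamma, at 81.7 and 0.0107. Then came eif-3.I at 64.4 and 0.0158, eif-6 at 52.3 and 0.0186, eif-3.E at 74 and 0.0357, and eif-1 at 69.7 and 0.0373. In the conservative comparison these 5 genes thus had rates of at most 0.0373, but in the pooled comparison eif-3.E had 0.729 and eif-6 had 0.735. In replicates 1 and 2 the rates of eif-3.E were 0.535 and 0.808. The other unlisted genes at or above the 90th percentile of ranked signal had higher rates: eif-3.D with 51.7 and 0.177, eef-1B.2 with 55.6 and 0.355, eif-3.J with 55 and 0.542, eif-2Balpha with 59.3 and 0.784, and eif-2Bdelta with 52 and 0.794, beside eef-1A.2, erfa-3 and inf-1 given above. The remaining 16 genes comprised 11 with ranked summits below that percentile, at signals of 16.8 to 50.7, and the 5 with none in the conservative comparison, eif-2D, eif-2beta, eif-3.F, eif-3.L and ife-5.

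**Figure D3:**
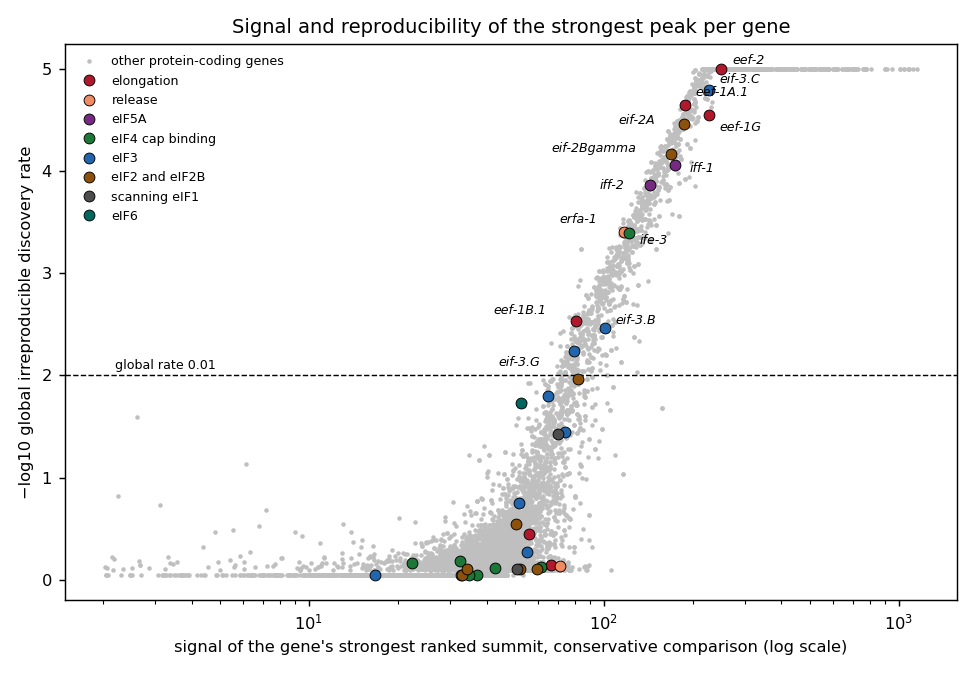
Signal of each gene's strongest ranked summit in the conservative comparison (log axis, authors' signal units) against −log10 of its global irreproducible discovery rate; coloured points are translation factor genes by role and grey points are other protein-coding genes, with the dashed line at a rate of 0.01. The 13 named genes stand above the line at signals of 79.3 to 250. Of the coloured points below it, only eif-2gamma, at 81.7, lies in that range, and the next highest is eif-3.E at 74.

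Within the lists, the peaks at these genes were neither the strongest nor the weakest. In the conservative list the 13 peaks had a median signal of 169 (range 79.3 to 250), beside 137 for the 1114 listed peaks with a protein-coding start in the window. In replicate 1 the median was 112 (64.6 to 179), beside 105, and in replicate 2 it was 58.1 (42.4 to 115), beside 69.1. The order of the medians thus turned between the replicates. In the conservative and pooled lists a peak has the same signal, so those 2 lists are not separate measurements of it.

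The replicates overlapped at these genes to a degree that depended on which list was read. All 10 genes listed in replicate 1 were listed in replicate 2 (100%, beside 75.5% of the protein-coding genes listed in replicate 1), and 10 of the 13 listed in replicate 2 were listed in replicate 1 (76.9%, beside 85.9%). The 3 listed in replicate 2 alone were eif-3.B, eef-1A.2 and erfa-3, and 0 were listed in replicate 1 alone. For the signal ratio each peak entered at most 1 pair, with its strongest overlapping partner, which gave 784 pairs over all listed peaks. Their log2 ratio of signal in replicate 1 over replicate 2 had a median of 0.74 (SD 0.35), so a ratio near that value marks no difference beyond the scale of the lists. The 10 pairs at translation factor genes had a median of 0.59.

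Around that median the genes spread widely. eef-1G had a log2 ratio of 1.69, above 99.9% of all pairs, with rank 191 in replicate 1 and 629 in replicate 2. eif-3.C followed at 1.34 and iff-1 at 1.31, above 96.8% and 95.9% of pairs. These 3 genes were thus much stronger in replicate 1 than the scale of the lists gives. At the other end stood eif-2Bgamma at −0.33, above 0.6% of pairs, with rank 799 in replicate 1 and 239 in replicate 2. It was 1 of 13 pairs, out of 784, with a higher signal in replicate 2. ife-3 had 0.15, eef-2 had 0.18 and eef-1A.1 had 0.26, with at most 9.1% of pairs below them, while eif-2A, erfa-1 and iff-2 lay between 0.34 and 0.92. With 1 library per replicate, whether this spread belongs to the worms or to the libraries cannot be told apart.

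**Figure D4:**
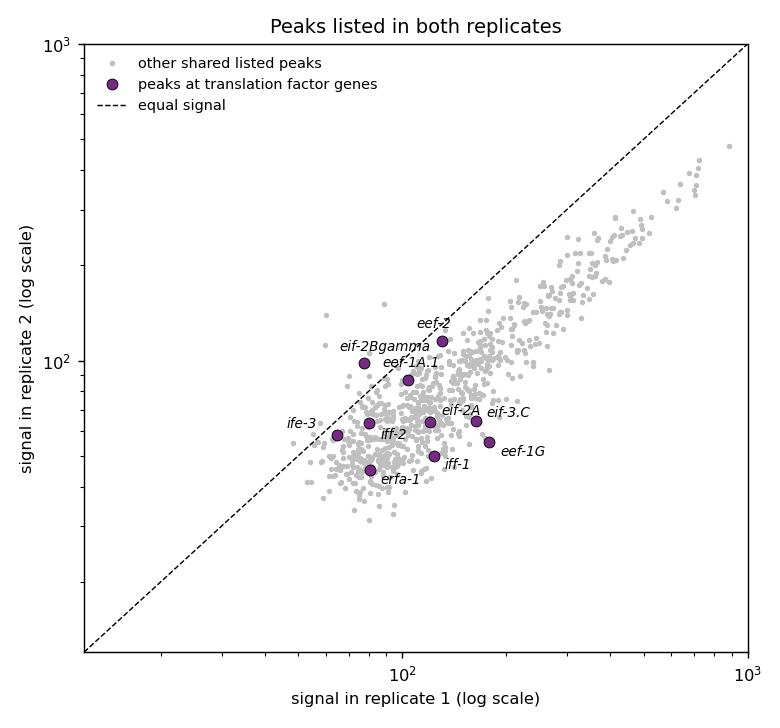
Signal of the 784 pairs of overlapping listed peaks, each peak with its strongest partner, in replicate 1 (horizontal) and replicate 2 (vertical), both on log axes in the authors' units, with the 10 pairs at translation factor genes in purple and a dashed line of equal signal. eef-1G lies at the lower right edge of the cloud, eif-2Bgamma above the line, and the other 8 in the cloud between them.

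Measured to the nearest start of the gene, listed summits lay upstream at distances like those at other genes. The window bounds these distances in the same way at all genes. The iff-1 summit lay inside the gene, upstream of its second annotated start. The 13 summits had a median distance of 254 bp upstream (quartiles 83 and 414), beside 264 bp (148 and 454) for all pairs of a listed summit and a protein-coding gene. Within 100 bp of the start were 4 of 13, those of eef-2, eef-1B.1, eef-1G and iff-2, beside 14.8% of all pairs. Within 500 bp were 12 of 13, beside 78.9%. Outside the windows, 0 listed summits fell in the body of any of the 42 genes. A wider window of 2000 bp upstream to 500 bp downstream added 2 genes: a peak of signal 204 lay 1978 bp upstream of eif-6, and one of signal 86.8 lay 1780 bp upstream of eif-2alpha.

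Many of the 13 peaks also lay in the window of another gene, and the lists do not say which gene a peak serves. In 7 of 13 the window of a second protein-coding gene held the same summit, in each case on the opposite strand, beside 38.2% of listed promoter peaks with starts on both strands. The eef-1G summit lay 156 bp from a start of ctf-4, a homologue of a replication fork protein, and the eef-2 summit 260 bp from clsp-1, the worm Claspin. The eef-1A.1 summit lay 127 bp from rfc-4, for a subunit of the clamp loader, and so nearer to rfc-4 than to eef-1A.1. The iff-1 summit lay 577 bp from cdk-1, the kinase that drives entry into mitosis. The other neighbours were gad-1 at 289 bp from the erfa-1 summit and nearer than erfa-1 itself, aco-2, for mitochondrial aconitase, at 326 bp from the eef-1B.1 summit, and F54C9.14 at 852 bp from the iff-2 summit. In replicate 2 the erfa-3 summit lay 499 bp from math-33, a ubiquitin protease gene.

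Starts of annotated RNA genes, piRNA genes left aside, lay within 100 bp of 3 of the summits. At eif-2Bgamma the summit was 14 bp from the start of sup-39, a U1 small nuclear RNA gene of 165 bp, 7 bp from mir-1831 and 152 bp from the non-coding C15F1.14, and the capitals in its window show how far sup-39 reaches into it. At eef-1A.1 the summit was 41 bp from cel-mir-5549, and at eef-1B.1 it was 64 bp from the non-coding F54H12.9, though nearer to eef-1B.1 itself. eif-2Bgamma was therefore listed through a peak centred on other annotated genes, and among the 10 genes listed in both replicates it had the highest signal in replicate 2 relative to replicate 1.

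**Figure D5:**
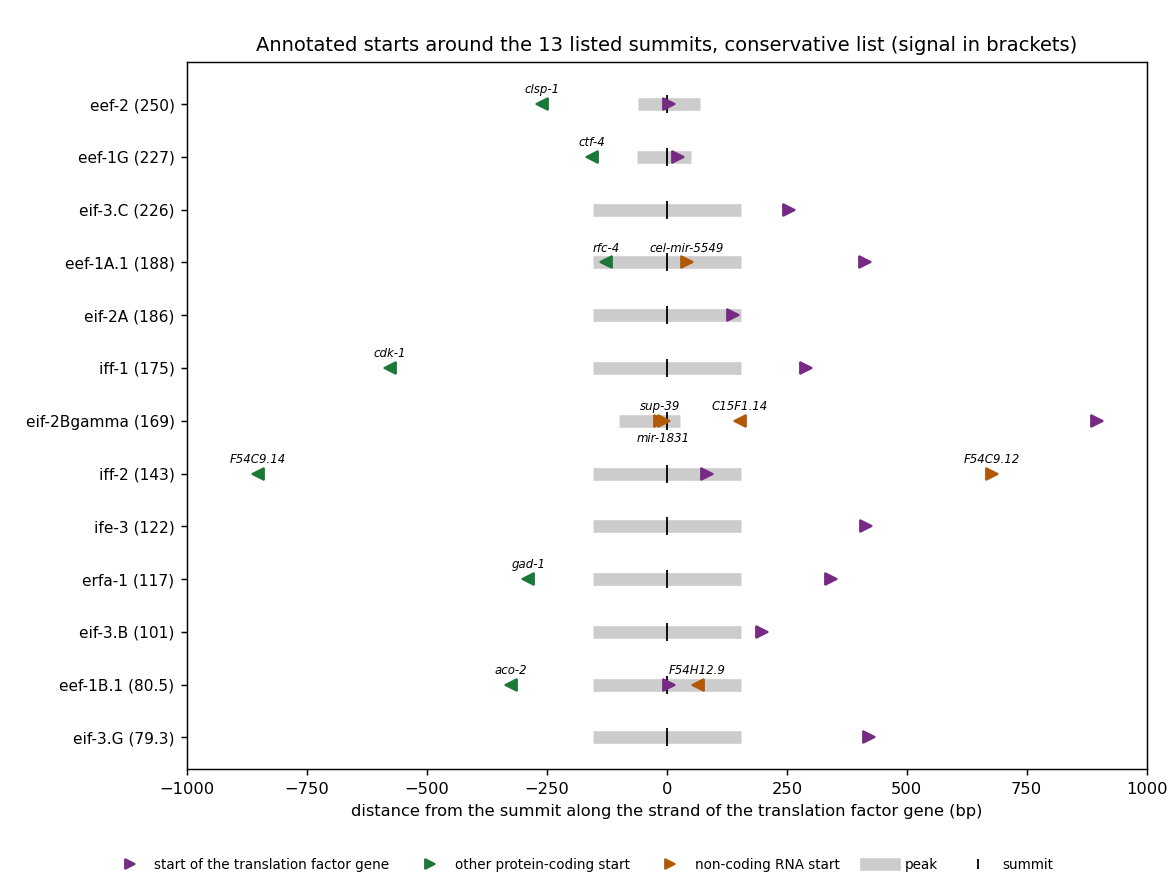
Annotated starts around the 13 summits of the conservative list, as distance in bp along the strand of the translation factor gene, with the peak as a grey bar and the signal in brackets; purple marks the translation factor gene, green another protein-coding gene and orange a non-coding RNA gene, each pointing in its direction of transcription. Starts of other protein-coding genes, all on the opposite strand, appear at 7 of the 13 peaks, and at eif-2Bgamma 3 orange starts lie nearer the summit than the gene's own start.

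Gene layout alone did not separate listed from unlisted translation factor genes. The nearest upstream gene ran on the opposite strand for 7 of 13 listed genes (53.8%) and 17 of 29 unlisted genes (58.6%), beside 64.6% of listed and 42.1% of all protein-coding genes. A gene on the same strand ended within 500 bp upstream, a layout found in worm operons, for 2 of 13 listed and 5 of 29 unlisted genes, beside 17.7% of all protein-coding genes. By chromosome, the conservative list held 2 of 12 genes on I, 5 of 12 on II, 3 of 7 on III, 0 of 2 on IV, 3 of 6 on V and 0 of 3 on X. Listed protein-coding genes were rare on X in general, 9 of 2731 (0.33%), against 8.48% off X, so the 3 genes there, eef-1A.2, ife-2 and ife-4, say little by themselves. On the autosomes 13 of 39 translation factor genes were listed, or 33.3% (19.1 to 50.2%), beside that 8.48%.

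A set of 7 words was searched on both strands, in promoters from 250 bases before to 50 bases after the most upstream start and in the window of 50 bases on either side of each listed summit. TAAT, the core that many homeodomains recognise, occurred in 41 of 42 promoters of translation factor genes, or 97.6%, beside 95.3% of all protein-coding promoters. Around the summits it occurred in 6 of 13 windows, or 46.2%, beside 46.4% of the 1114 windows at listed promoter peaks. TAATTA, which contains TAAT, occurred in 6 of 42 promoters, or 14.3%, beside 15.5%, and in 0 of 13 summit windows, beside 2.15%. TAAT was in nearly all promoters, so its promoter counts could not show an excess at these genes. Around summits it was about as frequent as at listed promoter peaks in general. That reference is itself made of listed peaks, so the counts do not say whether the core is raised at listed peaks.

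Of the other 5 words, TTCGCGC was the one more frequent at these genes in both windows. It occurred in 4 of 42 promoters, or 9.52%, beside 1.92% of all promoters, and in 3 of 13 summit windows, or 23.1%, beside 10.3% of those at listed promoter peaks. The 3 windows were those of eif-2A, erfa-1 and ife-3. The 4 promoters were those of eef-1B.1, eef-2, eif-2A and eif-2gamma, so eif-2A alone had the word in both. Both shares rest on these few genes. TATAAA occurred in 19 of 42 promoters, or 45.2%, beside 38%, but in 0 of 13 summit windows, beside 4.58%. GAGAGA occurred in 6 promoters, or 14.3%, beside 21.8%, and in 1 summit window, that of eef-1A.1, beside 11.1%. CTGCGTC and CACGTG occurred in 0 promoters, beside 4.33% and 5.81%, and in 0 summit windows, beside 6.01% and 2.69%. A match describes the letters in a window and does not show that a factor was bound to them.

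Another 2 words were noted only after the 13 windows had been read, so their counts at these genes describe that choice and support nothing. GCGCCA was in 6 of 13 windows, those of eef-1B.1, eef-2, eif-2A, eif-3.C, eif-3.G and iff-1, beside 15.5% of the other 1101 windows at listed promoter peaks and 3.05% of 14234 windows at unlisted ranked peaks in promoters. In the iff-1 window the word stands 2 times, overlapping on opposite strands, and in general it can share letters with TTCGCGC. CTGCGTAG, which shares its first letters with CTGCGTC, was in 3 of 13 windows, those of eef-1G, iff-1 and iff-2, beside 0.999% and 0.0703%. The same 2 references held TTCGCGC in 10.2% and 1.05% of windows. All 3 words were thus more frequent under other listed peaks than under unlisted ones. The median GC content was 47.5% in the 13 windows and 45.5% at listed promoter peaks.

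Of 41 other genes of translation and its control, 37 were found by symbol in the gene models, and 6 of these, or 16.2% (6.19 to 32%), were listed in the conservative list, beside 7.37% of protein-coding genes. larp-1, for an RNA-binding protein, had a listed signal of 227 in replicate 1, 131 in replicate 2 and 361 in the conservative list, above all 13 translation factor genes. ifet-1, for a protein that binds eIF4E and represses translation, had 215, 74.8 and 290, and abcf-2, of the ABC-F family of ribosome-associated ATPases, had 127, 66.9 and 194 in the same lists. abcf-1, of the same family, had 79.7, 61.9 and 136. tufm-1, for the mitochondrial elongation factor Tu, was listed in replicate 2 at 49.2 and in the conservative list at 105, but not in replicate 1, and larp-5 was listed in replicate 1 at 66.4 and in the conservative list at 101.3, but not in replicate 2. In 5 of the 6 another protein-coding gene lay in the same window and nearer the summit: wip-1 at 334 bp for larp-1, the ribosomal protein gene rps-1 at 230 bp for ifet-1, ant-1.1 at 3 bp for abcf-2, the cohesin gene scc-3 at 250 bp for abcf-1, and sld-2 at 123 bp for larp-5. tufm-1 had no such neighbour, and by nearest start alone it was the 1 gene of the 6 that was counted.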

How the data were processed

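Of the 8 lists that the authors deposited on ce11 (WBcel235), 4 are ranked and 4 thresholded, covering each replicate and 2 comparisons over the series, so peaks were called per sample and on pooled samples. The names and versions of aligner and peak caller were not given in the sources used here. The ranked list that belongs to the conservative comparison was found by coordinates: 58.4% of its inputs had those of replicate 1 peaks, against 0% in the other. The score in the deposited lists is derived from the global rate, with a maximum of 1000. Signal is the authors' own value for a peak, read here within 1 list at a time apart from the replicate ratios. The global rate was taken from its −log10 in the deposited ranked lists, and a deposited column of q-values was not used. They hold no read counts, so depth is unknown.

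Summits were assigned with Python 3.11.15, numpy 2.4.6 and pandas 2.3.3 to starts of Ensembl release 115, and intervals came from scipy 1.17.1. Peak assignment was tested on simulated data. The genes, the role groups and the list of other translation genes were chosen with earlier results of these data known. Values are given for each gene listed in the conservative list or in both replicates, for unlisted genes at or above the 90th percentile of ranked signal, and for listed genes of the other list. erfa-3 and eef-1A.2 are also given for replicate 2. Alternatives were other windows, the nearest protein-coding start alone, a rate of at most 0.001, the pooled list, and each replicate alone.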

Additional observations from a re-analysis of the deposited data

How the results depend on the processing

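The count of 13 listed translation factor genes was 12 with a window of 500 bp upstream to 100 bp downstream, 15 with 2000 bp upstream to 500 bp downstream, 11 when each summit went to the nearest protein-coding start alone, 10 at a rate of at most 0.001 and 12 in the pooled list. Merging overlapping peaks left 13 peaks. The share of protein-coding genes was 5.86% with the narrow window, 9.27% with the wide one, 5.25% by nearest start and 5.45% at the stricter rate, against 7.37%. By nearest start the elongation and release factors numbered 3 in place of 5, without eef-1A.1 and erfa-1, and the other translation genes 1 in place of 6. With the narrow window the other translation genes numbered 2. Leaving out each replicate in turn meant reading the other replicate's list alone, already described above, so it is no separate check. It gave 10 to 13 listed translation factor genes and as many peaks, 4 to 5 initiation factors and 4 to 6 elongation and release factors. Other translation genes numbered 5 in both cases, and the share of protein-coding genes was 5.32 to 6.06%. Calls of single genes were compared for the 15 genes listed in at least 1 list. The 27 others were left out, among them eif-6 and eif-2alpha, which the wide window added. Of these 105 calls, 14 changed, and 7 of the 15 genes had no call changed: eef-1G, eef-2, eif-2A, eif-3.C, ife-3, iff-1 and iff-2. The calls of eef-1B.1 changed in 4 of the 7 alternatives and those of eif-3.G in 3. The 10 peaks shared by the replicates were 10 under each definition of overlap. No paired analysis was possible because the replicates form 1 group and no test was made. Peaks near the threshold are limited by a depth that the lists do not give.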

Other observations

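Some translation factor genes carry symbols outside the naming rule, and 3 were looked up after the other values had been seen. drr-2, the worm gene for eIF4H, which assists the helicase eIF4A, had a listed signal of 390 in replicate 1, 207 in replicate 2 and 600 in the conservative list, at the 99.9th percentile of ranked signal. Its summit lay 179 bp upstream of drr-2 and 167 bp from set-16, a histone methyltransferase gene. egl-45, for the eIF3a subunit, had no ranked summit in its window in the conservative comparison. cif-1, for the eIF3m subunit, had a ranked signal of 41.9 with a rate of 0.474 and was not listed. Counting by symbol thus leaves out a gene whose window holds a stronger peak than any of the 42, though that summit lies nearer set-16.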
